A study of Homo sapiens with 24 samples.

Results

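The genes described here were 50 human genes that license, start and carry out DNA replication or drive the entry into S phase, chosen by name from the gene-body count table. They were 50 of 54377 genes in that table, and 48 of them passed the filter on low counts, which kept 21246 genes in all. Counts came from mammalian native elongating transcript sequencing (mNET-seq), in which RNA still held by immunoprecipitated RNA polymerase II (RNA Pol II) is sequenced. A count is thus meant to reflect polymerase on a gene rather than stored mRNA. Per the methods, the study removed ends from splicing intermediates for its plots. For differential expression it used full-length reads, so such RNA may be among the counts. The cells were U2OS, an established osteosarcoma line of wild-type genotype, grown as an unsynchronized monolayer. Polymerase was precipitated with antibodies to the C-terminal domain phosphorylated on tyrosine 1 (Y1P), serine 2 (S2P) or serine 5 (S5P).

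There were 6 groups of 2 libraries: Y1P IR, S2P IR and S5P IR from cells given ionizing radiation (IR, 10 Gy), and Y1P no IR, S2P no IR and S5P no IR from nonirradiated cells. The sample labels give irradiation for 10 min, wording that does not say when the cells were harvested. The methods of the study give a longer time, from treatment to collection. Each library was the sum of 2 sequencing runs that differed by little more than counting noise, and held 16220773 to 33144659 gene-body counts. All libraries came from 1 cell line, and nothing in the labels says that the replicate numbers were separate cultures. The study speaks of biological replicates, in a number other than that of the labels. The fit for irradiation took out the difference between replicate numbers within each antibody. Its p-values therefore measure how far the irradiation difference varied between replicate numbers, and that variation may be technical. Of the markers of the cell line, VIM, FN1, SPARC, COL1A1 and RUNX2 were transcribed at median levels of 1.71 to 9.55 CPM (counts scaled by library total and TMM factor) per kb of gene body, whereas COL1A2 was near 0. Of 3 epithelial markers, KRT18 had a median of 4.87 CPM per kb, while EPCAM and CDH1 had 0.138 and 0.0618. The sum of all 3 markers was 4.17 to 5.92 CPM per kb in irradiated libraries and 4.01 to 5.51 in nonirradiated libraries. The summed level of 4 leukocyte markers stayed at or below 0.0897 CPM per kb in irradiated libraries and 0.0861 CPM per kb in nonirradiated libraries.

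Replication begins in G1, when the origin recognition complex (ORC), CDC6 and CDT1 load the MCM2 to MCM7 helicase onto DNA, a step called licensing. At the G1/S border, cyclin E with its kinase partner and the DBF4-CDC7 kinase activate the helicase, CDC45 and GINS join it, and polymerases alpha, delta and epsilon copy the strands with the PCNA clamp, its RFC loader and the RPA single-strand binding complex. Many of these genes are known targets of E2F, the factor that the retinoblastoma protein restrains in G1, and ionizing radiation is known to slow the entry into and the passage through S phase. The counts were made on bulk cells, so fewer cells that transcribe a gene and fewer polymerases per cell cannot be told apart. Libraries were scaled to each other, so a rise or fall is relative to the other genes, and a change shared by all genes would not show.

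Promoter windows from RefSeq (GRCh38.p14, 250 bases before to 50 bases after each start) were at hand for 43 of the 50 genes. They were searched on both strands for the E2F octamers TTTGGCGC, TTTCCCGC, TTTCGCGC and TTTGCCGC, for CCAAT, and for TTTGAA, the core of the CHR element. An E2F octamer was present in 21 of the 43 genes (48.8%), against 5.47% of 15345 protein-coding genes with such a window. CCAAT was present in 58.1% of the 43 genes, against 42.5% of all protein-coding genes, and TTTGAA in 4.65%, against 15.9%. A match describes letters in a window and not a bound site. The following sequences show the octamer in capitals, 5′ to 3′ on the strand of the gene, for PCNA and POLE2, which changed most clearly in opposite directions with Y1P, for CDT1, which had the highest fold change with S2P and S5P, and for MCM6, which had the most matches.
PCNA upstream of its start, chr20:5126623-5126872, minus strand: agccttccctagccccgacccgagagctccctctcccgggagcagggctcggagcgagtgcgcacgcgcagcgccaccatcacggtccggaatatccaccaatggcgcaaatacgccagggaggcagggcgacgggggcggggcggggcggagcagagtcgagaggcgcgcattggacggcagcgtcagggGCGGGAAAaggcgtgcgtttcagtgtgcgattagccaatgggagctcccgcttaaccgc
POLE2 around its start, chr14:49688210-49688464, minus strand: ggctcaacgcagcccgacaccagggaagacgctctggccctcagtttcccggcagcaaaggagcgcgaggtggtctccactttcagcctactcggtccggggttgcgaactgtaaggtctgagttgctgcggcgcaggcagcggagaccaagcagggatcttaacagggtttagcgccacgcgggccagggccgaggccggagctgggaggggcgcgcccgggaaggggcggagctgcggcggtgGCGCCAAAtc
CDT1 octamer, chr16:88803738-88803777, plus strand: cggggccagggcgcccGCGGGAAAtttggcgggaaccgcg
MCM6 octamers, chr2:135876502-135876615, minus strand: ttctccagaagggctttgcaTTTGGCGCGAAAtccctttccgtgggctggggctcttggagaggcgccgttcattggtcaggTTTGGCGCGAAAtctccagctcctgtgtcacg
In MCM6 the capitals held 4 matches in 2 overlapping pairs, each TTTGGCGC on the strand of the gene followed by TTTCGCGC on the other strand.

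The level of nascent transcription differed widely between the genes before any comparison of conditions. Per kb of gene body, MCM7, a subunit of the helicase, was highest, with a mean of 20.3 CPM per kb over the 12 libraries, lowest 13.2 and highest 26.6, which placed it at the 99.5th percentile of protein-coding genes. The microRNA genes MIR106B, MIR93 and MIR25 within it had no entry of their own among the counts, so reads from them may be included. MCM5 followed with 11.6 CPM per kb, then POLE, the catalytic subunit of polymerase epsilon, with 7.83, CDC6 with 7.47 and RRM2, a subunit of ribonucleotide reductase, with 7.22. The ranges of POLE (6.21 to 9.52), CDC6 (6.32 to 8.74) and RRM2 (6.68 to 7.78) overlapped, so their order did not exceed the spread between libraries.

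Within each role group the highest and lowest genes were several-fold apart. In the helicase MCM6 was lowest with 1.65 CPM per kb. In ORC, ORC6 had 1.98 and ORC3 0.537 CPM per kb. In licensing CDC6 was highest and GMNN, which encodes the CDT1 inhibitor geminin, was lowest with 2.04 CPM per kb. CDC45 had 4.57 CPM per kb against 0.0972 for GINS3, RFC2 had 2.93 against 1.02 for RFC3, and POLE had 7.83 against 0.431 for POLD3. RPA1 had 1.12 and RPA3 0.149 CPM per kb. RRM2 was highest and RRM1 lowest, with 1.97 CPM per kb, among the nucleotide supply genes, and CDC25A, the phosphatase that activates the G1/S kinases, was highest with 2.83 among the cyclins and kinases, where CCNE2 was lowest with 0.453. LIG1, the ligase that joins Okazaki fragments, had 3.36 CPM per kb.

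**Figure D1:**
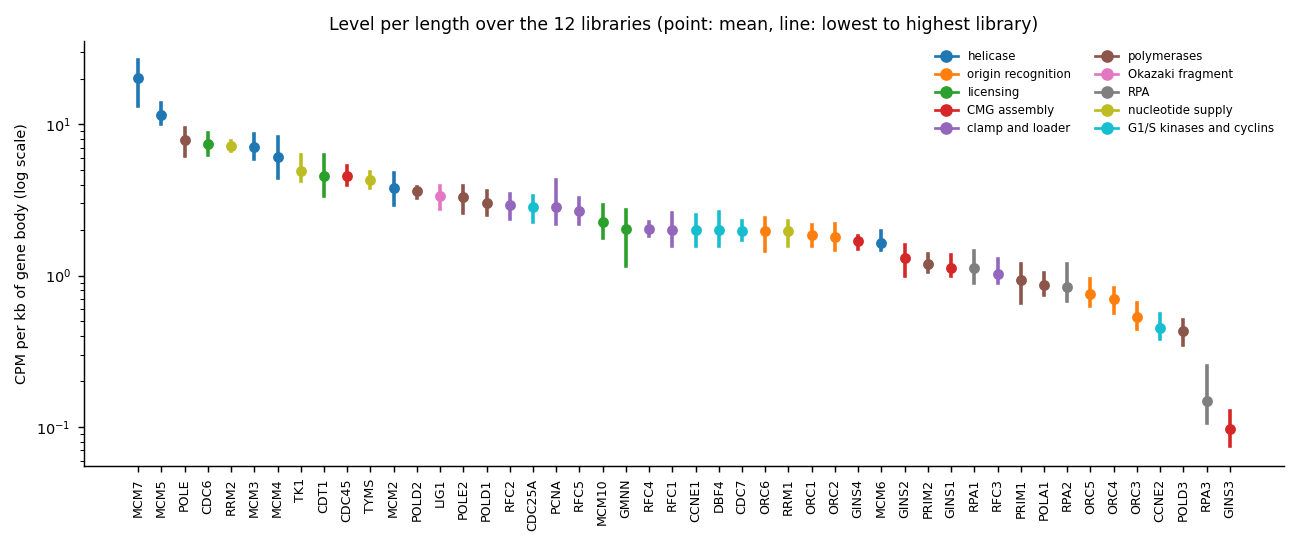
Level per length of the 48 genes kept, on a log axis of CPM per kb of gene body, ordered from highest to lowest and coloured by role. Points are means over the 12 libraries and lines run from the lowest to the highest library. MCM7 stands at 20.3 CPM per kb and GINS3 at 0.0972.

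Low levels per length depended on the annotated span. Reads were not recounted on another span, so the same counts over the GENCODE gene body were divided by the RefSeq length. GINS3 spanned 111068 bp in GENCODE and 13677 bp in RefSeq, and that quotient was 0.8 CPM per kb. It is its level on the RefSeq span only if all reads lay there. POLD3 spanned 175267 and 76760 bp, and its quotient was 0.986 CPM per kb, with the same limit. MCM5 went the other way, with 25298 bp in GENCODE and 54892 bp in RefSeq. Its quotient was 5.32 CPM per kb, though reads outside the GENCODE span were not counted for it. PRIM1, the catalytic subunit of primase, shared 51.1% of its gene body with other genes on its strand, where reads were not assigned, so its 0.94 CPM per kb is a lower bound.

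The 2 genes that failed the filter were POLA2, a subunit of polymerase alpha, and FEN1, the flap endonuclease that trims Okazaki fragments. POLA2 had 0 to 4 counts and FEN1 1 to 9 counts in a library. The whole gene body of each lay within another gene on the same strand, ENSG00000285816 for POLA2 and FADS2 for FEN1, and reads that overlapped several gene bodies were left out when the counts were made. Their counts therefore say nothing of their transcription.

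With Y1P, 2 of the 48 genes were higher and 4 were lower in irradiated cells at an adjusted p under 0.05 and a log2 fold change beyond 0.1 (edgeR quasi-likelihood test, Benjamini-Hochberg adjustment over all 21246 genes). The background in that comparison was 4.38% of all genes higher and 4.28% lower, and 3.57% and 5.75% of protein-coding genes, so the share of these genes that was called was near the background. The higher genes were PCNA and RPA3, and the lower ones POLE2, ORC4, DBF4 and RPA1. The median log2 fold change of the 48 genes was -0.07, with 18 above 0 and 30 below 0, against -0.04 over all protein-coding genes. Both irradiated libraries lay above both nonirradiated libraries for 10 of the 48 genes (20.8%) and below them for 17 (35.4%), against 21.6% and 27.6% of protein-coding genes. At an unadjusted p under 0.05, 6 of the 48 genes were above 0 and 13 below 0, beside 12% and 18.5% of protein-coding genes.

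The nonirradiated library of replicate 2 of Y1P had the lowest TMM factor of the 12 libraries, 0.835. Without both libraries of replicate 2 of Y1P none of the 6 genes passed, with log2 fold changes of 0.40 for PCNA, 0.24 for RPA3, -0.24 for POLE2, -0.16 for ORC4, -0.27 for DBF4 and -0.12 for RPA1, each of the same sign as with it. That fit left 1 Y1P library per condition, which was assumed to vary like those of the other antibodies, and over all genes it called 0.00914% higher and 0.032% lower. Leaving out replicate 1 of Y1P or a replicate number of S2P or S5P left 2 to 4 higher and 1 to 4 lower genes, and a fit with no term for the replicate number left 0 of either, with 0% and 0.00941% of all genes called. With library totals as the scale, which put the median of all genes at 0.21, 4 genes were higher and 0 lower.

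With S2P and with S5P, 0 of the 48 genes passed in either direction. The background was 0.0141% of all genes higher and 0.0847% lower with S2P, and 0.00941% and 0.0424% with S5P. At an unadjusted p under 0.05, 4 genes were above 0 and 6 below 0 with S2P, while all protein-coding genes had 7.65% above 0 and 11.2% below 0. With S5P, 11 of the 48 genes were above 0 and 3 below 0, while all protein-coding genes had 7.81% above 0 and 5.17% below 0. DESeq2 on the same libraries also called 0 of the 48 genes with either antibody. Other settings did call some of them, among them a separate fit per antibody, as the closing section gives. The median was -0.00167 with S2P, against -0.01 for all protein-coding genes, and 0.07 with S5P, against -0.00526. With S5P, both irradiated libraries lay above both nonirradiated libraries for 20 of the 48 genes (41.7%) and below them for 10 (20.8%), against 21.9% and 19.7% of protein-coding genes. The same counts with S2P were 9 genes above (18.8%) and 13 below (27.1%), against 20.2% and 21.7% of protein-coding genes.

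**Figure D2:**
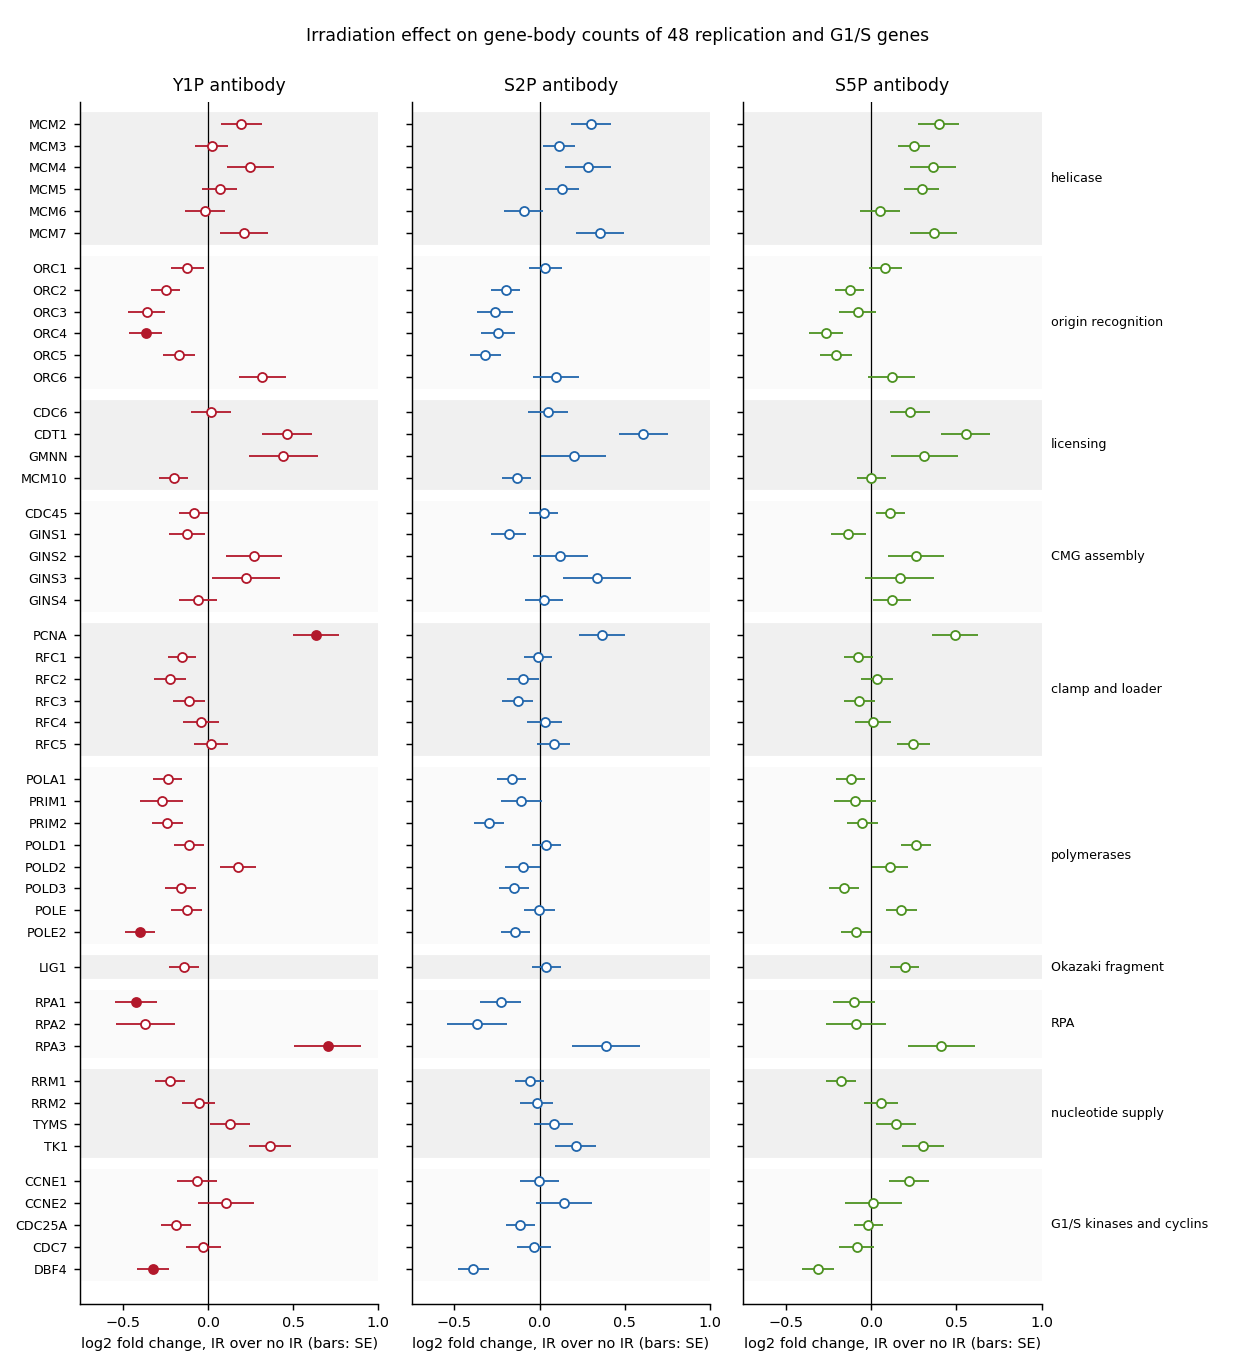
Log2 fold change of IR over no IR for the 48 genes, by role and antibody, with bars of 1 standard error. Filled points passed the test, which 6 genes did with Y1P and none with S2P or S5P.

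Among the helicase genes, whose products form the ring that unwinds the double helix, MCM2 had 81.9 and 91.2 CPM in Y1P IR libraries, against 81.3 and 69.8 CPM in Y1P no IR libraries. With S2P it had 102 and 108 CPM in irradiated cells, against 93.2 and 77.2 CPM in nonirradiated cells. With S5P it had 102 and 114 CPM in irradiated cells, against 88.2 and 75.5 CPM in nonirradiated cells. Its irradiated libraries were above its nonirradiated ones with each antibody, though the groups nearly touched with Y1P. The log2 fold change was 0.20 (SE 0.12, adjusted p = 0.295) with Y1P, 0.30 (SE 0.119, adjusted p = 0.223) with S2P and 0.40 (SE 0.12, adjusted p = 0.288) with S5P, none of which passed edgeR's test.

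MCM7, which also hosts the microRNA genes MIR106B, MIR93 and MIR25 in an intron, had 207.6 and 236 CPM in S5P IR libraries, against 190 and 155 CPM in S5P no IR libraries, and its log2 fold change was 0.37 with S5P, 0.35 with S2P and 0.21 with Y1P. With S5P all 6 helicase genes had a log2 fold change above 0, from 0.05 for MCM6 to 0.40 for MCM2, with a median of 0.33, and 5 of the 6 had an unadjusted p under 0.05, but the lowest adjusted p was 0.288. Without replicate 2 of S5P that median was 0.09 and MCM6 was at -0.13, whereas without replicate 1 of S5P it was 0.52. The helicase medians were 0.13 with Y1P and 0.21 with S2P, with 5 of 6 genes above 0 and MCM6 below 0 in each. Without replicate 2 of Y1P the Y1P median was 0.001 with 3 of 6 genes above 0, and without replicate 2 of S2P the S2P median was 0.065.

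Among the ORC genes, 5 of 6 were below 0 with Y1P and the exception, ORC6, was at 0.32. ORC6 spanned 8.8 kb and the other ORC genes 31.6 to 91.2 kb. Protein-coding genes under 15 kb had a Y1P median of 0.23 and those over 80 kb -0.16, so role and length were not separated here. ORC4, a subunit of the complex that marks origins, had 56.0 and 51.5 CPM in Y1P IR libraries, against 64.3 and 74.6 CPM in Y1P no IR libraries. It had 61.4 and 62.8 CPM in S2P IR libraries, against 75.4 and 71.8 CPM in S2P no IR libraries, and 54.0 and 59.2 CPM in S5P IR libraries, against 66.3 and 69.7 CPM in S5P no IR libraries. The groups did not overlap with any antibody, and irradiated cells were the lower ones each time. ORC4 fell by 0.37 on the log2 scale with Y1P (SE 0.0996, adjusted p = 0.0408), and its log2 fold changes of -0.25 with S2P and -0.27 with S5P did not pass (edgeR, adjusted p = 0.229 and 0.354).

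ORC5 showed the same separation, with 65.0 and 56.8 CPM in S2P IR libraries, against 77.8 and 74.1 CPM in S2P no IR libraries, and log2 fold changes of -0.17, -0.32 and -0.21 with Y1P, S2P and S5P. None of them passed the test. ORC2 was at -0.25 and ORC3 at -0.36 with Y1P (edgeR, adjusted p = 0.0772 and 0.052). The median of the ORC genes was -0.21 with Y1P, -0.22 with S2P and -0.10 with S5P. With library totals as the scale, 3 of the 6 were above 0 with Y1P and the median was -0.01, below the 0.21 of all genes.

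Of the licensing genes, CDT1, the loader that is degraded once S phase begins, had 23.8 and 28.8 CPM in Y1P IR libraries, against 20.2 and 17.7 CPM in Y1P no IR libraries. It had 26.4 and 32.4 CPM in S2P IR libraries, against 18.6 and 19.7 CPM in S2P no IR libraries. It had 27.5 and 32.9 CPM in S5P IR libraries, against 22.5 and 18.7 CPM in S5P no IR libraries. Every irradiated library was above every nonirradiated library of the same antibody. The log2 fold change was 0.46 with Y1P (SE 0.146, adjusted p = 0.0609), 0.61 with S2P (SE 0.144, adjusted p = 0.143) and 0.55 with S5P (SE 0.145, adjusted p = 0.247), so that CDT1 did not pass with any antibody in edgeR. CDT1, at 5.5 kb, was also the shortest of the 48 genes, and once the trend of each library with gene length was taken out its Y1P value was 0.14. CDC6, the ATPase that works with CDT1, was at 0.02, 0.05 and 0.23 with Y1P, S2P and S5P, GMNN at 0.44, 0.20 and 0.31, and MCM10, which helps to fire the helicase, at -0.20, -0.14 and 0.00, without passing the test.

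None of CDC45 and the GINS subunits passed with any antibody. Their log2 fold changes ran from -0.12 for GINS1 to 0.27 for GINS2 with Y1P, from -0.18 for GINS1 to 0.34 for GINS3 with S2P, and from -0.13 for GINS1 to 0.26 for GINS2 with S5P.

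PCNA, the sliding clamp that holds polymerases on DNA and a known p53 target, had 32.6 and 48.9 CPM in Y1P IR libraries, against 25.3 and 26.2 CPM in Y1P no IR libraries. It had 31.2 and 39.6 CPM in S2P IR libraries, against 27.2 and 27.3 CPM in S2P no IR libraries. It had 35.0 and 41.5 CPM in S5P IR libraries, against 26.9 and 27.4 CPM in S5P no IR libraries. The nonirradiated libraries lay close together with each antibody, the irradiated ones were all above them, and replicate 2 was the higher irradiated library each time. PCNA rose by 0.63 on the log2 scale with Y1P (SE 0.135, adjusted p = 0.0235). Its log2 fold changes of 0.36 with S2P (SE 0.134, adjusted p = 0.208) and 0.49 with S5P (SE 0.136, adjusted p = 0.249) did not pass in edgeR. The Y1P value was 0.42 with an adjusted p of 0.0753 once the trend with gene length was removed. A small nucleolar RNA gene, ENSG00000212517, lies within 1.07% of the PCNA gene body and had no entry of its own among the counts. The RFC genes, which encode the clamp loader, ran from -0.22 for RFC2 to 0.02 for RFC5 with Y1P, from -0.13 for RFC3 to 0.08 for RFC5 with S2P and from -0.07 for RFC1 to 0.25 for RFC5 with S5P, and none passed.

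**Figure D3:**
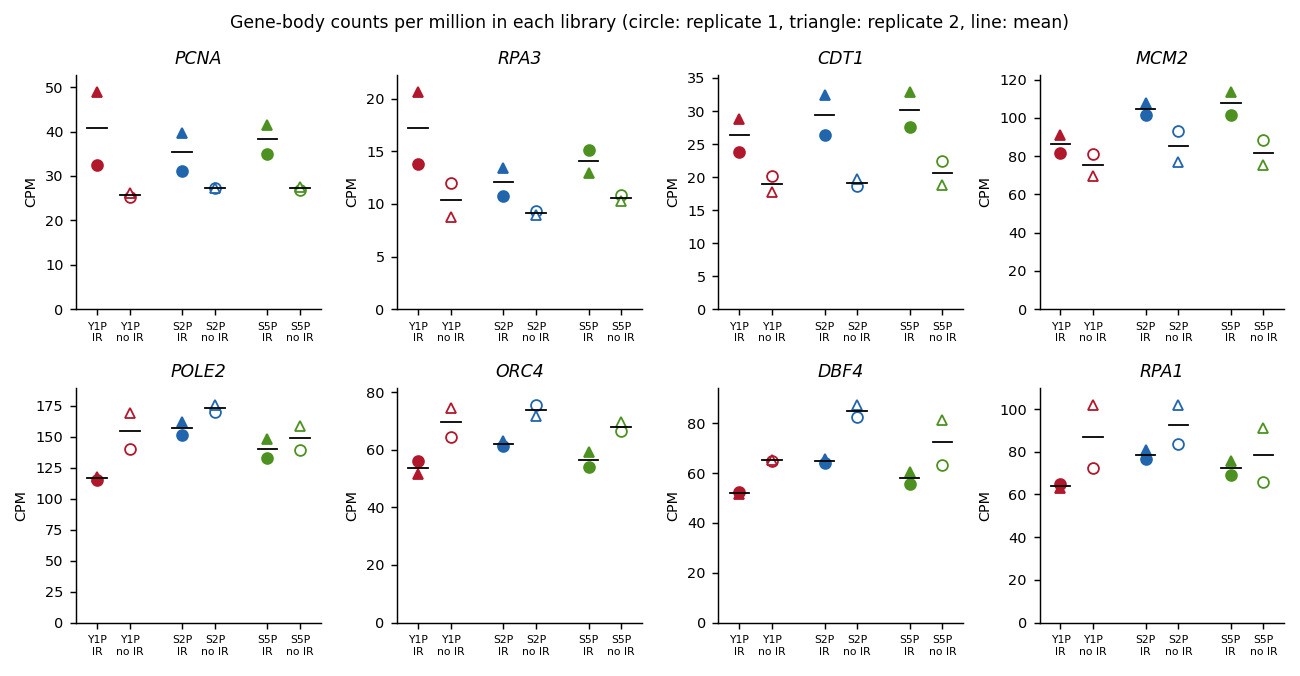
CPM in each library for the 6 genes that passed with Y1P and for CDT1 and MCM2, which did not. For each antibody the irradiated libraries stand left of the nonirradiated ones, with lines at the means. PCNA reached 48.9 CPM in replicate 2 of Y1P IR, and its nonirradiated libraries lay between 25.3 and 27.4 CPM.

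Of the 8 polymerase and primase genes kept, 7 were below 0 with Y1P and POLD2 was above 0, whereas with library totals as the scale 4 of the 8 were above 0. POLD2, at 9.7 kb, was the shortest of the 8, and its Y1P value was -0.06 once the trend with gene length was removed. POLE2, an accessory subunit of polymerase epsilon, had 116 and 118 CPM in Y1P IR libraries, against 140 and 169 CPM in Y1P no IR libraries. It had 152 and 162 CPM in S2P IR libraries, against 170 and 176 CPM in S2P no IR libraries. It had 133 and 148 CPM in S5P IR libraries, against 140 and 159 CPM in S5P no IR libraries, where the groups overlapped. POLE2 fell by 0.40 on the log2 scale with Y1P (SE 0.0875, adjusted p = 0.0241), the lowest adjusted p among the genes that fell. Its values of -0.14 with S2P and -0.09 with S5P did not pass in edgeR (adjusted p = 0.396 and 0.699).

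PRIM2, the large primase subunit, had 351 and 368 CPM in S2P IR libraries, against 460 and 424 CPM in S2P no IR libraries, and its log2 fold change there of -0.30 did not pass (edgeR, adjusted p = 0.162). POLD1, the catalytic subunit of polymerase delta, had 106 and 118 CPM in S5P IR libraries, against 89.3 and 97.3 CPM in S5P no IR libraries, and its log2 fold change of 0.26 did not pass either (edgeR, adjusted p = 0.321). POLA1, POLD3, POLD2, POLE and PRIM1 lay between -0.27 and 0.18 with all antibodies, without a call. LIG1 was at -0.14, 0.04 and 0.20 with Y1P, S2P and S5P, and did not pass.

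The RPA genes encode the 3 subunits of the complex that coats single-stranded DNA, and they moved in both directions. RPA1, the large subunit, had 64.8 and 63.1 CPM in Y1P IR libraries, against 72.3 and 102 CPM in Y1P no IR libraries, and it fell by 0.42 on the log2 scale (SE 0.123, adjusted p = 0.0485 in edgeR). The nonirradiated Y1P libraries were far apart, and RPA1 was also higher in replicate 2 than in replicate 1 of the nonirradiated cells with S2P and S5P. With S5P its groups overlapped and its log2 fold change was -0.10. RPA2 was at -0.37 with Y1P and S2P, without passing the test.

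RPA3, the smallest subunit, had 13.8 and 20.6 CPM in Y1P IR libraries, against 11.97 and 8.79 CPM in Y1P no IR libraries, and it rose by 0.70 on the log2 scale (SE 0.196, adjusted p = 0.0443 in edgeR). It had 10.7 and 13.4 CPM in S2P IR libraries, against 9.33 and 8.91 CPM in S2P no IR libraries, and 15.2 and 13.0 CPM in S5P IR libraries, against 10.8 and 10.2 CPM in S5P no IR libraries. Its groups did not overlap with any antibody, but its log2 fold changes of 0.39 and 0.41 with S2P and S5P did not pass (edgeR, adjusted p = 0.322 and 0.434). RPA3 had 153 to 438 counts in a library and was among the least counted of the genes kept.

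Among the nucleotide supply genes, TK1, which phosphorylates thymidine, had 64.4 and 81.5 CPM in Y1P IR libraries, against 55.3 and 57.3 CPM in Y1P no IR libraries. The groups did not overlap, and its log2 fold change of 0.36 was just outside the threshold (edgeR, SE 0.121, adjusted p = 0.071). It was at 0.21 with S2P and 0.30 with S5P. RRM1, the large subunit of ribonucleotide reductase, was at -0.23, -0.06 and -0.18 with Y1P, S2P and S5P, while RRM2 and TYMS, the thymidylate synthase, lay between -0.05 and 0.15, and none of these passed.

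Of the G1/S kinases and cyclins, DBF4, the regulatory subunit that activates the CDC7 kinase, had 52.4 and 51.7 CPM in Y1P IR libraries, against 65.0 and 65.5 CPM in Y1P no IR libraries. It had 64.1 and 65.5 CPM in S2P IR libraries, against 82.4 and 87.3 CPM in S2P no IR libraries. It had 55.6 and 60.3 CPM in S5P IR libraries, against 63.3 and 81.4 CPM in S5P no IR libraries. Irradiated cells were lower in every library with each antibody, and the replicates were tight with Y1P and S2P. DBF4 fell by 0.32 on the log2 scale with Y1P (SE 0.0934, adjusted p = 0.0475), just inside the threshold, and its log2 fold changes of -0.39 with S2P and -0.31 with S5P did not pass in edgeR (adjusted p = 0.143 and 0.285). CDC7 itself was at -0.03, -0.03 and -0.08 with Y1P, S2P and S5P, without passing. CCNE1 and CCNE2, the E cyclins, lay between -0.06 and 0.22, and CDC25A between -0.19 and -0.02, none with a call.

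The irradiated libraries lay above the nonirradiated ones with all 3 antibodies for 6 of the 48 genes, MCM2, MCM4, RPA3, PCNA, CDT1 and TK1, and below them for 5, DBF4, POLD3, POLA1, ORC4 and ORC5. Over all protein-coding genes the shares were 6.32% and 7.84%, against 12.5% and 10.4% of the 48 genes. The antibodies were used on the same line, and whether the 3 precipitations of a replicate number shared 1 culture is not given in the sources used here. Differences between the replicate numbers correlated by 0.168 to 0.392 over all pairs of groups, across antibodies too. The 3 antibodies are therefore not taken as 3 separate observations.

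The irradiation effect did not pass a test of difference between antibodies for any of the 48 genes. The background there was 0% of all genes in S5P minus Y1P and S2P minus Y1P, and 0.00471% lower in S5P minus S2P. The smallest unadjusted p values were those of POLD1, LIG1 and POLE2, whose log2 fold changes were higher with S5P than with Y1P by 0.37 (SE 0.124), 0.34 (SE 0.121) and 0.31 (SE 0.123), each with an adjusted p of 0.666 in edgeR. For PCNA the difference was -0.14 (SE 0.191) in S5P minus Y1P and -0.27 (SE 0.191) in S2P minus Y1P. The 6 calls with Y1P were therefore not shown to be particular to Y1P. At an unadjusted p under 0.05, S5P minus Y1P held 4 of the 48 genes above 0 and 0 below 0, beside 4.98% and 2.42% of protein-coding genes.

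In nonirradiated cells, where the antibodies were compared at the larger threshold of 1 on the log2 scale, 0 of the 48 genes passed in any of the 3 comparisons. The background was 0.0659% of all genes higher and 1.02% lower in S2P over Y1P, and 0% in S5P over Y1P and S5P over S2P. Smaller differences were found in S2P over Y1P, where 13 of the 48 genes had an adjusted p under 0.05 and all 13 were above 0, beside 5.45% of all genes above 0 and 3.02% below 0 by the same rule. MCM10 had 133 and 144 CPM in S2P no IR libraries, against 97.6 and 107 CPM in Y1P no IR libraries, without overlap, a log2 fold change of 0.44 (SE 0.0828, adjusted p = 0.00406 in edgeR). RFC1, with 204.4 and 173 CPM in S2P no IR libraries, against 153 and 132 CPM in Y1P no IR libraries, and CDC25A, with 104 and 105 CPM in S2P no IR libraries, against 76.7 and 84.8 CPM in Y1P no IR libraries, followed at 0.40 and 0.37 (edgeR, adjusted p = 0.00785 and 0.00888). The median of the 48 genes was 0.18 in S2P over Y1P and -0.16 in S5P over S2P, where MCM10 was at -0.38 (edgeR, adjusted p = 0.0594) and 42 of 48 genes were below 0. Protein-coding genes had medians of 0.02 and -0.03 in these comparisons, and 8238 of 14661 were below 0 in S5P over S2P. The count of 13 was 0 in a fit with no replicate term, which called 0% of all genes, 0 without replicate 1 of S2P, 1 without replicate 2 of Y1P, 6 without replicate 1 of Y1P and 7 without replicate 2 of S2P, while the median stayed between 0.14 and 0.25 when any replicate number was left out.

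The irradiation effect was ordered by gene length. Over the 48 genes Spearman's rho of log2 fold change with annotated length was -0.59 with Y1P, -0.56 with S2P and -0.57 with S5P, as a description across genes, which are not independent and share their libraries. Over 14661 protein-coding genes it was -0.42, -0.34 and -0.45. With Y1P the 9 genes under 15 kb had a median log2 fold change of 0.32, the 19 genes of 15 to 40 kb -0.03, the 11 genes of 40 to 80 kb -0.20 and the 9 genes over 80 kb -0.16. The medians of protein-coding genes in the same classes were 0.23, 0.01, -0.11 and -0.16. All 11 genes of 40 to 80 kb were below 0 with Y1P, beside 1979 of 2977 protein-coding genes of that length. All 9 genes under 15 kb were above 0 with S5P, beside 2683 of 3477 protein-coding genes.

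PCNA and CDT1 were among the short genes and POLE2, RPA1 and ORC4 among the long ones, whereas RPA3, at 82.1 kb, rose with a length at which most genes were below 0. DBF4, at 33.3 kb, fell with Y1P, where protein-coding genes of 15 to 40 kb had a median of 0.01. With the length trend of each library removed, 1 of the 48 genes was higher with Y1P, RPA3 (0.77, adjusted p = 0.0464 in edgeR), and 1 was lower, POLE2 (-0.38, adjusted p = 0.0403 in edgeR). The part of length in the other calls was not tested beyond that fit.

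**Figure D4:**
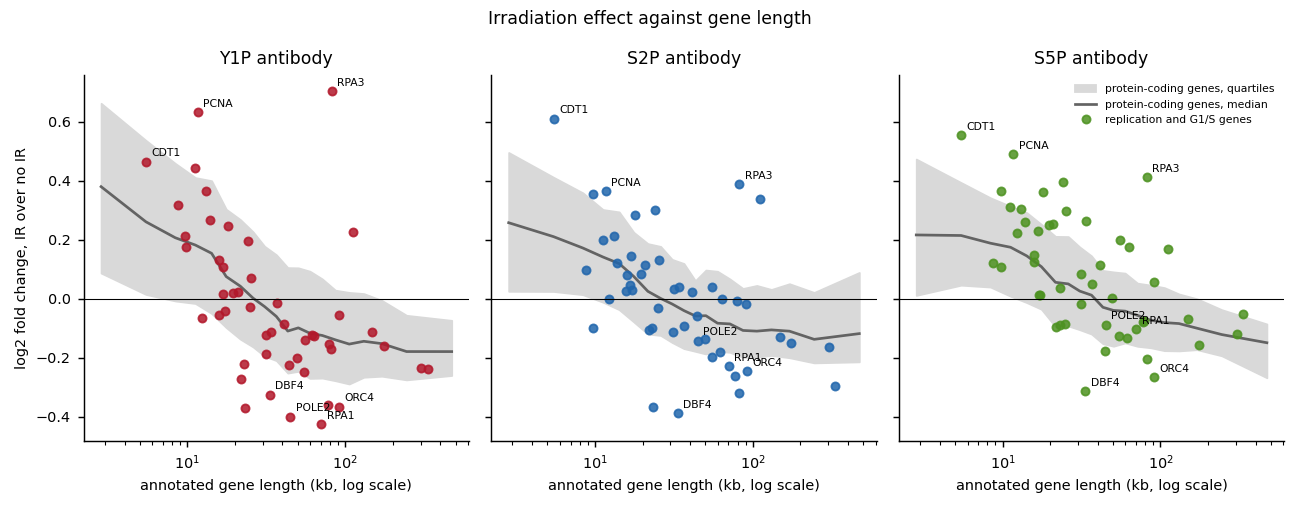
Log2 fold change of IR over no IR against annotated gene length in kb (log axis) for the 48 genes, over the median (line) and quartiles (band) of protein-coding genes in 20 bins of length. The 48 genes slope downward with length with each antibody, and RPA3, at 82.1 kb, stands above the band in all 3 panels.

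Genes with an E2F octamer in the promoter window had a median log2 fold change of 0.00 with Y1P, 0.04 with S2P and 0.17 with S5P (20 genes tested), and those without had -0.15, -0.06 and 0.01 (21 genes tested). Median length was 28.1 kb with an octamer, against 33.8 kb without, and the ranges of fold change overlapped with every antibody. POLE2, which fell, and PCNA, which rose, both carried an octamer.

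A further list of 40 genes that act in or around replication, of which 38 were tested, gave 0 higher and 6 lower genes with Y1P and 0 in either direction with S2P and S5P. The 6 lower genes were 15.8% of the list, beside 5.75% of protein-coding genes. The 6 were DNA2 (-0.41), a nuclease of Okazaki fragment ends, TOP2A (-0.37) and TOP1 (-0.31), the topoisomerases that relax DNA, ATAD5 (-0.35), which unloads PCNA, RIF1 (-0.30), a regulator of replication timing, and TOPBP1 (-0.29), which activates the checkpoint kinase ATR (edgeR, adjusted p from 0.0254 to 0.0485). The medians of the 38 genes were -0.07 with Y1P, -0.00243 with S2P and 0.04 with S5P. Without replicate 2 of Y1P the Y1P median was -0.05, in a fit with 1 Y1P library per condition. Lower genes with Y1P were 0 with library totals as the scale, with no replicate block and in a separate fit per antibody. The shares of all genes lower there were 0.231%, 0.00941% and 1.21%. With the length trend removed 1 gene was lower, beside 1.94% of all genes. A filter of at least 50 counts in every library left 1, beside 2.32%, and protein-coding genes alone left 1, beside 2%. Upper quartile factors left 2, beside 1.81%. DESeq2 gave 7 on the same libraries, beside 4.45%, and 8 on runs as replicates, beside 7.27%. A replicate block shared by the antibodies gave 7, beside 8.19%, and no filter gave 6, beside 3.01%.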

How the data were processed

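Gene-body counts of U2OS mNET-seq libraries were used as the authors deposited them, as raw counts per gene from 200 bp after the start to the end of each gene. Per the labels and methods, the authors trimmed reads with cutadapt (version 1.8.3 in the processing notes, a later one in the methods), aligned them to hg38 with STAR, kept unique reads, removed internal priming and duplicates, and counted with featureCounts on the sense strand without reads that overlapped several gene bodies. Genes were matched by ID to GENCODE release 44 (120 of 54377 were not found, holding 0.0116% of counts), and 1022 repeated entries without counts were dropped. The 24 runs were summed to 12 libraries by replicate number, because runs of 1 number gave chi-square values of 1.059 to 1.099 per degree of freedom, against at least 10 between numbers. Run totals were 7515849 to 17949336.

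Genes passed filterByExpr, libraries were scaled by TMM, and edgeR 4.0.16 in R 4.3.3 fitted 1 quasi-likelihood model to the 12 libraries with terms for group and for replicate number within antibody (residual df 3). Antibodies were compared in nonirradiated cells with 1 shared replicate term. CPM are on the TMM scale. DESeq2 1.42.0 and the other alternatives are given in the closing section. Genes named with values were those past the threshold, the 4 lowest p in each direction per antibody, the extremes of level in each role group, and the genes described as ranges. A count does not separate a low level from reads lost to overlapping genes. The members and lists were chosen with earlier results of these data known.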

Additional observations from a re-analysis of the deposited data

How the results depend on the processing

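With 2 libraries in a group the spread rests on few residual degrees of freedom. With Y1P, where 2 of the 48 genes were higher and 4 lower, the counts of higher and lower genes were 0 and 0 with no replicate block, 4 and 5 with 1 block shared by the antibodies, 1 and 4 with DESeq2 on the same libraries, 4 and 7 with DESeq2 on runs as replicates with sequencing batch, 4 and 0 with library totals alone, 4 and 1 with upper quartile factors, 5 and 5 with no filter, 1 and 1 with a stricter filter of at least 50 counts in every library, 1 and 1 with the length trend removed, 2 and 1 over protein-coding genes alone and 2 and 0 in a separate fit per antibody. The shares of all genes higher and lower with Y1P, in the same order of settings, were 0% and 0.00941%, 7.71% and 8.19%, 1.07% and 4.45%, 6.07% and 7.27%, 5.59% and 0.231%, 5.06% and 1.81%, 3.96% and 3.01%, 4.49% and 2.32%, 1.06% and 1.94%, 3.53% and 2% and 3.76% and 1.21%. With S2P the counts were 1 and 1 with the shared block, beside 0.438% and 0.725% of all genes, 1 and 1 in the separate fit, beside 0.98% and 0.898%, 3 and 3 with DESeq2 on runs, beside 1.48% and 2.67%, and 2 and 1 with no filter, beside 0.858% and 0.756%. With S5P they were 10 and 2 in the separate fit, beside 3.06% and 2.34%, 5 and 0 with DESeq2 on runs, beside 1.04% and 0.744%, and 5 and 0 with no filter, beside 0.394% and 0.269%. Leaving out a replicate number gave 0 to 4 higher and 0 to 4 lower genes with Y1P, 0 to 1 higher and 0 lower with S2P, and 0 to 1 higher and 0 lower with S5P. Over all genes with Y1P the counts were 931 and 909, against 0 and 2 with no replicate block and 2 and 7 without replicate 2 of Y1P. Differences between antibodies and comparisons of antibodies gave 0 of the 48 genes past their thresholds under every alternative run. For the 24 pairs of a gene and an antibody that were past the threshold or among the 4 lowest p in a direction, 0 of 456 refits changed sign, 45 lost and 42 gained a call. Over all 144 pairs of the 48 genes, 76 changed sign in at least 1 alternative, 25 with Y1P, 31 with S2P and 20 with S5P. Those furthest from 0 were GMNN with Y1P (0.44, and -0.06 without replicate 2 of Y1P), RPA2 with S2P (-0.37, and 0.02 without replicate 2 of S2P) and GINS3 with S2P (0.34, and -0.06 without replicate 2 of S2P), and MCM7 with Y1P (0.21) was at -0.05 without replicate 2 of Y1P and -0.02 with the length trend removed. PCNA was higher with Y1P in 16 of 19 alternatives, POLE2 lower in 15, RPA3 higher in 15, RPA1 lower in 9, ORC4 in 8 and DBF4 in 6. The replicate numbers were not shown to pair the samples, since deviations of same-numbered libraries within an antibody correlated by 0.168 to 0.282 with 2 numbers. The cause of the differences between alternatives was not tested.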
